A study of Ovis aries with 32 samples.

Results

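Adipogenic transcription factors are the DNA-binding proteins that carry a preadipocyte into an adipocyte. The set examined here was named by gene symbol alone: PPARG, CEBPA, CEBPB, CEBPD, EBF1, KLF4, KLF5, ZNF423, STAT5A and STAT5B. Of these 10 symbols, 9 were found among the gene names of the deposited table, which holds 35219 transcripts of 21271 genes, and the 9 genes have 17 transcripts. KLF4 was not analysed here. The values of the transcripts of a gene were added to give a gene sum, in normalized reads.

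Preadipocytes were isolated from the perirenal fat of fetal sheep (Ovis aries), a visceral depot around the kidney, and were sequenced as they were or after differentiation to adipocytes. The extraction protocol of the labels speaks of adipose tissue, whereas the study's methods speak of cell pellets. The 4 preadipocyte groups were control males (MC), control females (FC), growth-restricted males (MFGR) and growth-restricted females (FFGR), and the same 4 groups after differentiation were MCD, FCD, MFGRD and FFGRD, with 4 libraries in each. Fetal growth restriction (FGR) was produced by placental insufficiency in ewes kept at high ambient temperature in mid-gestation, control ewes were pair-fed at a moderate temperature, and all fetuses were near-term singletons. The composition and duration of the differentiation treatment were not given in the sources used here. The labels number the replicates and do not say that each came from its own fetus, so the p-values below measure the spread between these libraries.

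In textbook accounts the adipogenic program runs in waves. CEBPB and CEBPD come first after a hormonal stimulus, together with KLF5 and the signal-activated factors STAT5A and STAT5B. ZNF423 and EBF1 mark or commit cells of the lineage, and all of these feed into PPARG, the nuclear receptor required for fat cell formation, and CEBPA. PPARG and CEBPA then maintain each other and switch on the genes of lipid uptake and storage.

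Some libraries stood apart from the rest of their group, and their values bear on several of the factors. In 9 libraries the value of a transcript fell steeply with the length of genome that the transcript spans. The slope of log2(transcript value + 1), over transcripts that passed the filter, was between -1.503 and -0.848 for each 10-fold increase in span. The other 23 libraries lay between -0.569 and -0.041. The 9 were MCD replicates 2 and 4, MFGR replicate 1, MFGRD replicate 1, FC replicate 2, FCD replicate 2, FFGR replicates 2 and 3 and FFGRD replicate 3, thus 4 preadipocyte and 5 differentiated libraries. FCD replicate 4 was the differentiated library lowest in an adipocyte marker. Its sum for ADIPOQ, the gene of the adipocyte hormone adiponectin, was 8.585, beside a preadipocyte median of 11.7 (0 to 215.7). The other 15 differentiated libraries lay between 146.1 and 13420. Of these, MFGRD replicate 4 (146.1) and FFGRD replicate 4 (174.7) also lay within the preadipocyte range. Genes that glucocorticoids induce were nonetheless at differentiated levels in FCD replicate 4. FKBP5 was at 13800 (906 in the highest preadipocyte library) and ZBTB16 at 779 (8.19), and the growth hormone receptor gene GHR was at 456 (336). Library totals were 9.52 to 21.22 M normalized reads, or approximately 7.8 to 21.3 M reads, and 1 read was worth a value of 0.7 to 1.8.

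Differentiation raised PPARG, CEBPA, EBF1, STAT5A and STAT5B, while CEBPB, CEBPD and KLF5 showed no difference that passed the test. The change was greatest for CEBPA, at 16.2-fold, followed by PPARG at 4.79-fold, EBF1 at 2.75-fold, STAT5A at 2.46-fold and STAT5B at 1.52-fold. Thus 5 of the 9 factors were called and all 5 were higher, beside 27.2% of the 12737 genes tested that were called, 12.4% higher and 14.8% lower. A gene was called at an adjusted p below 0.05 and a fold change above 1.5, from limma on log2(gene sum + 1) with Benjamini-Hochberg adjustment over all genes tested, and all fold changes below are on that scale. The median log2 difference was 0.85 over the 9 factors and 0.03 over all genes.

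**Figure D1:**
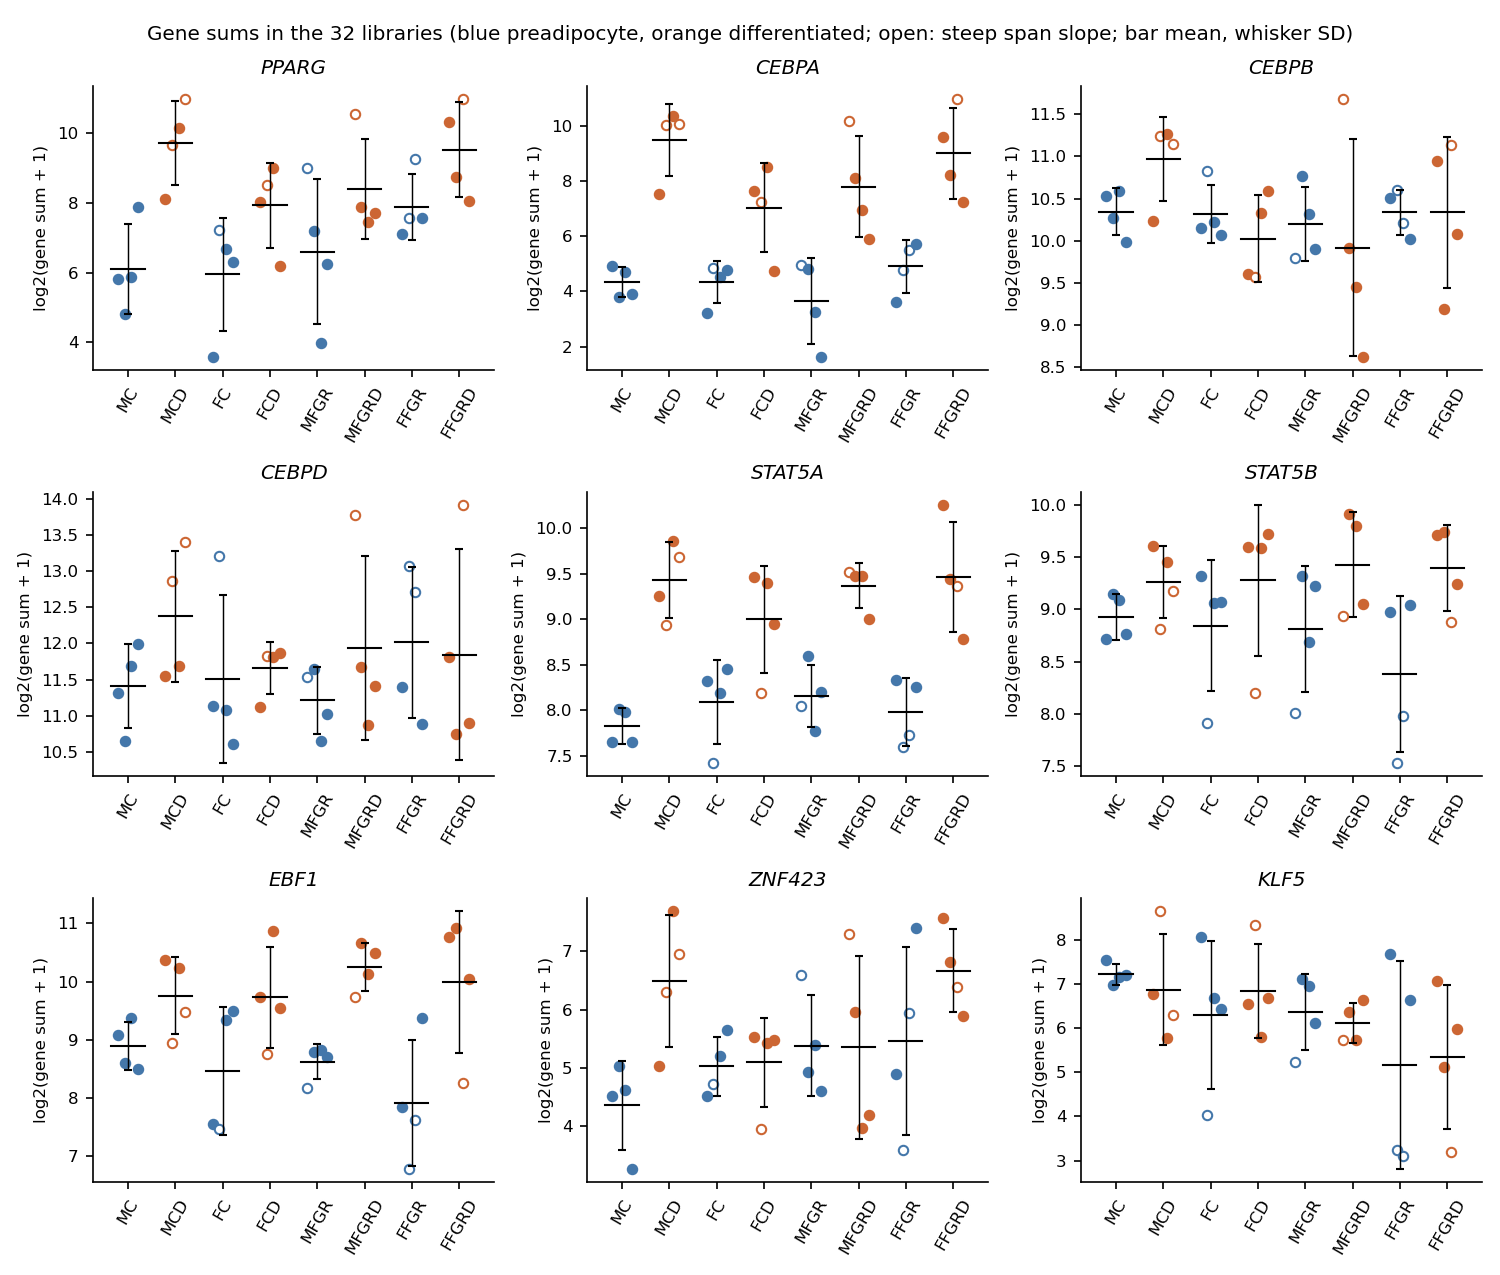
Gene sums of the 9 factors in each of the 32 libraries, as log2(gene sum + 1), by group, with preadipocytes in blue, differentiated cells in orange, the group mean as a bar and 1 SD as a whisker. Open symbols mark the 9 libraries with a steep span slope. CEBPA and STAT5A sat higher in 15 of the 16 differentiated libraries than in any preadipocyte library, whereas CEBPB overlapped widely.

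CEBPA (ENSOARG00020011732) is a gene of a single transcript on chromosome 14, at 46634838 to 46635925 of Oar_rambouillet_v1.0. Its product is the bZIP factor that holds mature adipocytes in their differentiated state. In order of replicate number, as in all such lists below, the sums were 29.32, 12.99, 25.3 and 14.17 in MC and 183.7, 1062, 1300 and 1063 in MCD. In FC they were 8.204, 28.18, 21.77 and 26.38 and in FCD 197.6, 151.9, 359.9 and 25.57. In MFGR they were 29.85, 26.8, 8.528 and 2.082 and in MFGRD 1155, 279.6, 122.9 and 58.71. In FFGR they were 11.22, 26.74, 44.56 and 51.51 and in FFGRD 770, 295.6, 2024 and 149.2. The differentiated libraries thus spanned a far wider range than the preadipocyte libraries, and FCD replicate 4 alone fell among the latter. The log2 difference over all groups was 4.02 ± 0.46 (SE, adjusted p = 1.18e-07), and it remained called, at 3.82 to 4.21, whichever of the 32 libraries was left out.

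PPARG (ENSOARG00020025834) lies on chromosome 19 at 58596716 to 58697061 and has 4 transcripts. In MC its sums were 55.05, 27.29, 57.06 and 235.9, and in MCD they were 273.8, 810.2, 1119 and 1989. The other male groups gave 504.8, 143.9, 14.79 and 74.76 in MFGR and 1490, 235.5, 173.6 and 207.7 in MFGRD. MCD did not overlap MC, but MFGR replicate 1 exceeded 3 of the 4 MFGRD libraries. In females the sums were 10.99, 148, 102.1 and 77.31 in FC, 257.3, 361.5, 506.8 and 72.01 in FCD, 137.4, 187.1, 610.1 and 188.6 in FFGR, and 1274, 424.5, 2012 and 266.4 in FFGRD. FCD replicate 4 was the lowest differentiated library, as it was for CEBPA. The log2 difference over all groups was 2.26 ± 0.48 (SE, adjusted p = 0.000526), called in all 32 fits that leave out a library (2.04 to 2.46).

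The libraries with a steep span slope held the higher PPARG sums at both stages. Among preadipocytes the 4 such libraries had a median of 346 (148 to 610.1), beside 76.03 (10.99 to 235.9) in the other 12. After differentiation the 5 such libraries had a median of 1490 (361.5 to 2012), beside 266.4 (72.01 to 1274) in the other 11. For CEBPA the medians, steep libraries first, were 29.02 and 17.97 in preadipocytes and 1063 and 197.6 after differentiation, with overlapping ranges. Without all 9, an alternative chosen after seeing the data, the log2 differences were 2.20 for PPARG and 3.71 for CEBPA and both were still called.

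STAT5A (ENSOARG00020024057, chromosome 11, 20725472 to 20745468) and STAT5B (ENSOARG00020024144, chromosome 11, 20793947 to 20818798) are neighbouring genes for the transducers that growth hormone and prolactin receptors activate. The pair are close paralogs, so the division of reads between them is uncertain. STAT5A had the smallest standard error among the 5 called factors, with a log2 difference of 1.30 ± 0.16 (SE, adjusted p = 2.54e-07). Its sums were 200.8, 258.1, 252.6 and 199.7 in MC and 612.2, 487.8, 930.2 and 819 in MCD, and 263.6, 385.9, 218.2 and 294.4 in MFGR and 734.5, 710.3, 709.4 and 511 in MFGRD. In females they were 318, 170.6, 290.5 and 350.4 in FC, 707.8, 290.2, 671.8 and 492.9 in FCD, 322.5, 193.4, 210.8 and 305 in FFGR, and 1222, 693.7, 656.2 and 441.3 in FFGRD. FCD replicate 2 was the lone differentiated library inside the preadipocyte range (170.6 to 385.9), and FCD replicate 4, which had preadipocyte levels of CEBPA, was above it.

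The change in STAT5B was small, with a log2 difference of 0.60 ± 0.19 (SE, adjusted p = 0.0176) and a fold change of 1.52 close to the limit of 1.5. Its adjusted p stayed at or below 0.0322 in all 32 fits that leave out a library, but the fold passed the limit in only 17 of them. It fell short without MC replicate 1 or 4 (0.58 for each), MCD replicate 1 (0.57) or 3 (0.58), MFGR replicate 1 (0.53), or MFGRD replicate 2 (0.56) or 3 (0.57). It also fell short without FC replicate 2 (0.52), FCD replicate 1 (0.57), 3 (0.57) or 4 (0.56), FFGR replicate 2 (0.53) or 3 (0.57), or FFGRD replicate 1 or 2 (0.57 for each), without the 9 libraries with a steep span slope (0.54) and with quantile normalization (0.57). In both stages those libraries were low in STAT5B, at 183.8 to 256.6 beside 411.4 to 640.1 in the other preadipocytes, and at 292.1 to 577.7 beside 530 to 965.2 in the other differentiated cells.

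EBF1 (ENSOARG00020023107) spans chromosome 5 from 73220571 to 73626455 and codes for an early factor of mesenchymal and B-lymphoid lineages that binds the PPARG and CEBPA genes. The sums were 542, 386.1, 660.3 and 361.9 in MC and 1322, 493.8, 1203 and 712.5 in MCD. In MFGR they were 287.6 to 452.4 and in MFGRD 848.5 to 1629, without overlap. In FC they were 186.8, 176, 644.6 and 719 and in FCD 856.8, 431.6, 1864 and 748.4, and they were 229.5, 109, 197.1 and 663.3 in FFGR and 1740, 1932, 305.6 and 1057 in FFGRD. FCD replicate 2, FFGRD replicate 3 and MCD replicate 2, each with a steep span slope, were the 3 lowest differentiated libraries. The log2 difference was 1.46 ± 0.28 (SE, adjusted p = 0.000186) and 1.57 without the 9 libraries, and EBF1 was called in all 32 fits that leave out a library.

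ZNF423 (ENSOARG00020005823, chromosome 14, 19354202 to 19697144), a zinc finger factor that marks committed preadipocytes, did not pass the test over all groups, at a log2 difference of 0.85 ± 0.36 (SE, adjusted p = 0.0747). Its sums were low, 8.646 to 167.5 in preadipocytes and 14.56 to 205.5 after differentiation. It was called when MCD replicate 1 (0.97), MFGR replicate 1 (0.95), MFGRD replicate 3 (0.96) or 4 (0.94), FCD replicate 2 (0.94) or FFGR replicate 4 (1.01) was left out, and with library weights (0.76).

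The 3 early factors gave no call. CEBPB (ENSOARG00020011295, chromosome 13, 81625384 to 81626436), which first responds to the adipogenic stimulus, had a log2 difference of 0.01 ± 0.23 (SE, adjusted p = 0.974), with sums of 888.4 to 1819 in preadipocytes and 393.7 to 3285 after differentiation. CEBPD (ENSOARG00020009877, chromosome 9, 34440561 to 34441331), which glucocorticoids induce, had 0.41 ± 0.33 (SE, adjusted p = 0.378). KLF5 (ENSOARG00020009199, chromosome 10, 51548526 to 51566002), a Krüppel-like activator of PPARG, had 0.03 ± 0.46 (SE, adjusted p = 0.969).

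CEBPD, and in preadipocytes KLF5, differed between libraries with and without a steep span slope. For CEBPB the medians, steep libraries first, were 1373 and 1218 in preadipocytes and 2272 and 1085 after differentiation, with overlapping ranges. In preadipocytes CEBPD was at 2976, 9451, 8614 and 6670 in the 4 libraries with a steep slope and at 1555 to 4063 in the other 12. After differentiation it was at 7432, 10800, 13990, 3638 and 15440 in the 5 such libraries and at 1713 to 3746 in the other 11. KLF5 was at 36.9, 15.31, 8.385 and 7.549 in the steep preadipocyte libraries, below all of the other 12 (68.39 to 266.4). After differentiation it was at 401.3, 77.87, 52.27, 320.6 and 8.23 in the steep libraries, which include the highest and the lowest of all 16, and at 33.58 to 133.5 in the other 11, with medians of 77.87 and 81.29. The part of the span slope in these values was not tested beyond the alternatives. Without the 9 libraries KLF5 was called lower after differentiation, with a log2 difference of -0.81 (adjusted p = 0.0174). CEBPD spans 0.77 kb of genome, CEBPB 1.05 kb, CEBPA 1.09 kb, KLF5 17.48 kb and STAT5B 24.85 kb, with STAT5A between KLF5 and STAT5B. PPARG spans 100.35 kb, ZNF423 342.94 kb and EBF1 405.88 kb. Of these long genes, EBF1 had lower medians in the steep libraries, at 186.6 beside 448.1 in preadipocytes and 493.8 beside 1322 after differentiation. PPARG had higher medians at both stages, as given above. So did ZNF423, at 42.78 beside 29.1 and 83.05 beside 45.35, with overlapping ranges. Whether the differences follow gene span was not tested.

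**Figure D2:**
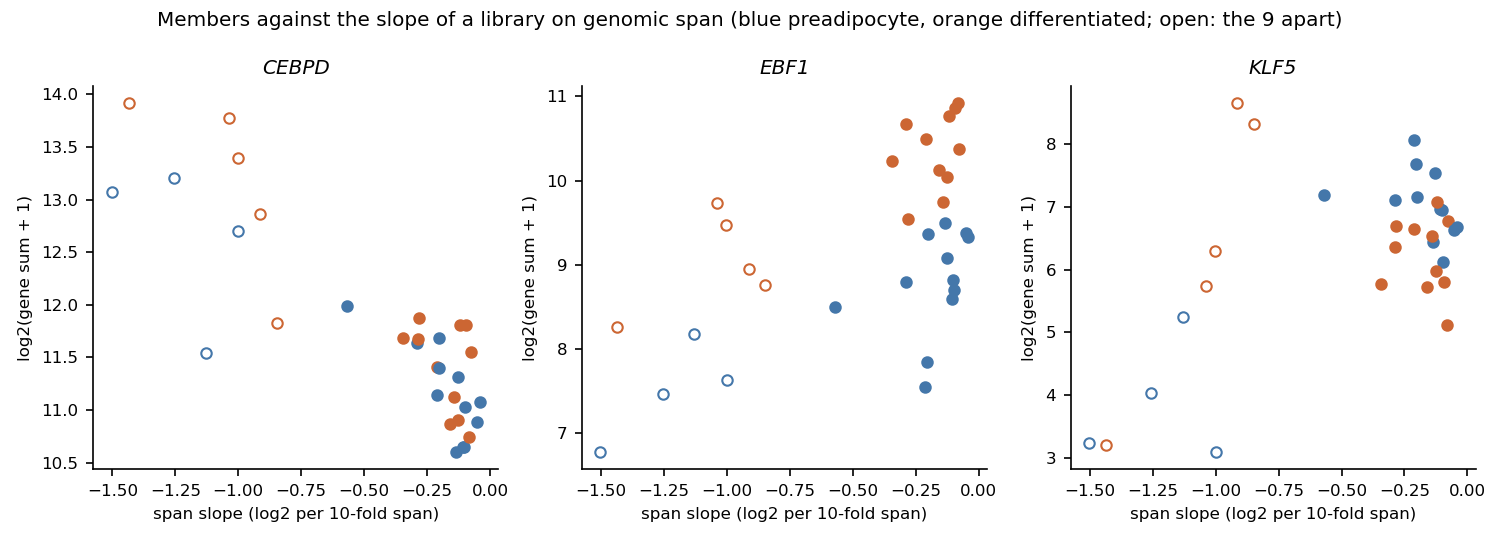
CEBPD, EBF1 and KLF5, as log2(gene sum + 1), against the slope of each library's log2 transcript values on the log10 of the genomic span of the transcripts. Preadipocytes are in blue, differentiated cells in orange and the 9 libraries that stood apart are open symbols. CEBPD was highest, at 15440, in FFGRD replicate 3, which has a steep slope, and EBF1 was lowest, at 109, in FFGR replicate 2, which has the steepest (-1.503).

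The study asked whether each of the 4 fetal groups responds to differentiation, and here the groups were fitted on their own 8 libraries. CEBPA, PPARG and STAT5A passed the test in MC, EBF1 and STAT5A in MFGR, CEBPA in FFGR and none in FC. All of the calls were increases. The share of all genes called also differed, at 7.53% in MC (3.33% higher and 4.21% lower), 0.43% in FC (0.181% and 0.249%), 3.38% in MFGR (1.22% and 2.16%) and 2.67% in FFGR (0.914% and 1.76%). In FC, 3 of the 9 factors had an unadjusted p below 0.05, and library weights called 2 of the 9, CEBPA and STAT5A, in a fit that called 1504 of the 11634 genes in place of 50.

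In MC the log2 differences were 5.15 ± 0.61 for CEBPA (SE, adjusted p = 0.00205), 3.62 ± 0.72 for PPARG (adjusted p = 0.0165) and 1.61 ± 0.27 for STAT5A (adjusted p = 0.00835). PPARG lost its call without MC replicate 1 (3.52) or 3 (3.54), or MCD replicate 2 (3.64) or 3 (3.48), and without the libraries with a steep span slope (3.02). ZNF423 had 2.13 ± 0.61 (adjusted p = 0.0644) and EBF1 0.87 ± 0.36 (adjusted p = 0.178). With the replicate number as a block, both passed, at adjusted p = 0.0365 for ZNF423 and 0.0424 for EBF1, which makes 5 calls in place of 3. ZNF423 was also called without MCD replicate 1 (2.62).

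In FC the response of CEBPA was 2.69 ± 0.78 (SE, adjusted p = 0.187), that of PPARG 1.98 ± 0.85 (adjusted p = 0.377), that of EBF1 1.27 ± 0.60 (adjusted p = 0.432) and that of STAT5A 0.90 ± 0.37 (adjusted p = 0.351). FCD replicate 4, the differentiated library lowest in ADIPOQ, lies in this comparison. Without it the values rose to 3.46 for CEBPA and 2.56 for PPARG, and still 0 of the 9 factors were called.

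In MFGR the values were 1.63 ± 0.29 for EBF1 (SE, adjusted p = 0.0233) and 1.21 ± 0.27 for STAT5A (adjusted p = 0.0451). CEBPA had 4.14 ± 1.02 (adjusted p = 0.0681) and PPARG 1.80 ± 1.06 (adjusted p = 0.495). With the replicate number as a block CEBPA (adjusted p = 0.00279) and PPARG (adjusted p = 0.038) were called as well, which makes 4 calls in place of 2. CEBPA was also called with the span slope as a covariate, with library weights and with all 8 groups in 1 fit. Over all genes the block called 2081 and these fits 1610, 1344 and 654, in place of 393. The call of STAT5A was lost when any 1 of the 8 libraries was left out (1.08 to 1.36), and that of EBF1 without MFGR replicate 2 (1.69) or 4 (1.66) or MFGRD replicate 2 (1.49), 3 (1.67) or 4 (1.55), and with all 8 groups in 1 fit (1.63).

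In FFGR the response of CEBPA was 4.10 ± 0.83 (SE, adjusted p = 0.0417), and it was lost in 7 of the 8 fits that leave out a library (3.44 to 4.37), with FFGRD replicate 4 the exception, and with the replicate number as a block. EBF1 had 2.09 ± 0.72 (adjusted p = 0.192), PPARG 1.65 ± 0.73 (adjusted p = 0.324) and STAT5A 1.48 ± 0.38 (adjusted p = 0.0833). This group holds 2 of the 4 preadipocyte libraries with a steep span slope. Read as overlap, all 4 differentiated libraries lay above all 4 preadipocyte libraries for CEBPA and STAT5A in MC, MFGR and FFGR, for PPARG in MC and for EBF1 in MFGR. The share of all genes separated in this way was 7.59% in MC, 4.95% in FC, 4.84% in MFGR and 5.01% in FFGR.

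**Figure D3:**
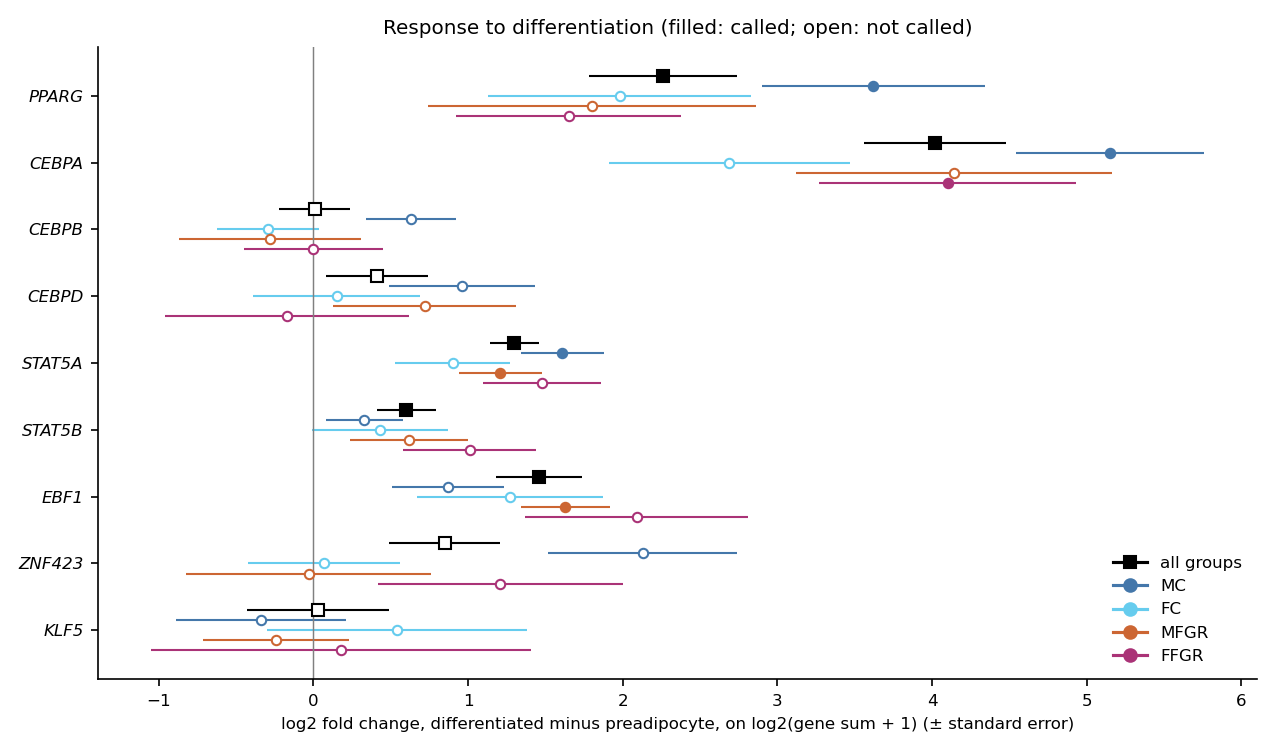
Log2 difference between differentiated and preadipocyte libraries, with its standard error as a horizontal line, for the 9 factors over all groups (black squares) and in each of the 4 fetal groups (circles). Filled symbols were called and open symbols were not. PPARG had 3.62 in MC and 1.65 to 1.98 in the other groups, with standard errors of 0.72 to 1.06.

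The differences in response between groups were tested directly, and 0 of the 9 factors passed. In males, growth-restricted cells minus controls gave -1.82 ± 1.38 for PPARG (SE, adjusted p = 0.966), -1.02 ± 1.27 for CEBPA (adjusted p = 0.966) and -2.16 ± 1.05 for ZNF423 (adjusted p = 0.966, unadjusted p = 0.0559). In females the same contrast gave -0.33 ± 1.20 for PPARG and 1.41 ± 1.21 for CEBPA (adjusted p = 1.0 for both). Averaged over the sexes, the response in FGR minus that in controls was -1.07 ± 0.96 for PPARG and 0.79 ± 0.56 for EBF1 (adjusted p = 0.988 for both). Averaged over growth groups, that in males minus that in females was 1.25 ± 0.91 for CEBPA (adjusted p = 0.912). In each of these 4 tests limma called 0.0% of all genes, and 195 genes in males, 40 in females, 132 for growth restriction and 116 for sex had an unadjusted p below 0.05.

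Growth restriction and sex were also compared within each stage, and limma called 0 of the 9 factors and 0.0% of all genes in the 4 comparisons. In preadipocytes the log2 differences, FGR minus control, ranged from -1.0 for KLF5 to 1.21 ± 0.71 for PPARG (SE, unadjusted p = 0.106, adjusted p = 0.833). After differentiation they ranged from -1.13 ± 0.54 for KLF5 (unadjusted p = 0.0561, adjusted p = 1.0) to 0.38 for EBF1. Male minus female ranged from -0.62 for CEBPA to 1.05 ± 0.69 for KLF5 in preadipocytes (adjusted p = 0.844 for both) and from 0.01 for STAT5B to 0.63 for CEBPA after differentiation. The unadjusted p was below 0.05 for 0 of the 9 factors in each of the 4 comparisons, and for 306 and 87 genes with growth restriction and 470 and 94 with sex, preadipocytes first. Of the 4 preadipocyte libraries with a steep span slope, 3 are growth-restricted and 3 are female (FC replicate 2 and FFGR replicates 2 and 3). Without the 9 the sex difference in KLF5 was -0.14. Growth-restricted preadipocytes had KLF5 sums of 36.9, 137.3, 123.2 and 68.39 in males and 205, 8.385, 7.549 and 98.22 in females. The low values were those of the steep libraries. For PPARG the highest growth-restricted preadipocyte sums, 504.8 in MFGR replicate 1 and 610.1 in FFGR replicate 3, were also of steep libraries. The steep FFGR replicate 2 was at 187.1, beside 188.6 in FFGR replicate 4. The part of the span slope in these differences was not tested beyond the alternatives.

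The PPARG transcripts held different shares of the gene sum at the 2 stages. PPARG-202, which covers the whole gene, held 98.5% of the sum in preadipocytes and 63.0% after differentiation. PPARG-201, whose span of 58596716 to 58661189 is the shorter, was listed at 0 in 14 of the 16 preadipocyte libraries and held 1.0% of the sum there, but 32.5% after differentiation. In differentiated libraries it had a median of 82.3, 0 in 3 libraries and 889 in the highest. Its log2 difference was 5.30 ± 0.89 (SE, adjusted p = 5.74e-05), beside 1.68 ± 0.89 for PPARG-202 (adjusted p = 0.193). A fold against a group mostly at 0 depends on the pseudocount, and the difference between the transcripts was not tested. The low PPARG-201 values, 14.8 in MFGR replicate 3 and 11 in FC replicate 1, stand for few reads. Without MCD replicate 3, in which PPARG-202 was listed at 0, PPARG-202 was called too (2.24). The Salmon estimates divide reads shared by overlapping transcripts, and none was matched here to the PPARG1 or PPARG2 proteins.

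**Figure D4:**
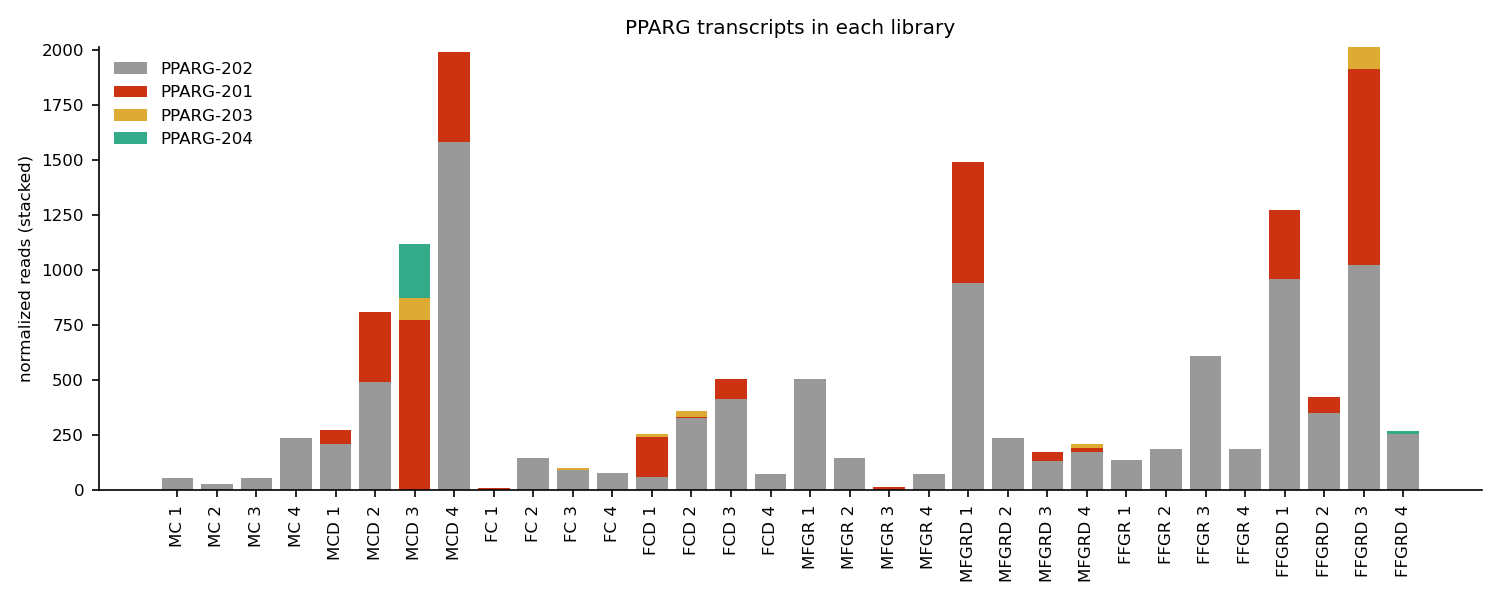
Normalized reads of the 4 PPARG transcripts, stacked, in each of the 32 libraries, ordered by group. PPARG-201 (red) was above 0 in 13 of the 16 differentiated libraries and in 2 of the 16 preadipocyte libraries, and PPARG-202 (grey) reached 1580 in MCD replicate 4.

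Of the 17 transcripts 15 passed the filter, and 7 were called, all higher, beside 19.8% of the 19469 transcripts tested (9.02% higher and 10.8% lower). The 7 were CEBPA-201, PPARG-201, EBF1-201 (1.37), EBF1-203 (2.51), STAT5A-201 (1.59), STAT5A-202 (1.20) and STAT5B-201 (0.60). Both STAT5A transcripts were called, and STAT5A-201 held 25% of the sum in preadipocytes and 28.6% after differentiation. PPARG-204 and STAT5B-202 were below the filter.

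Differentiated libraries of one group differed widely in ADIPOQ, from 8.585 to 13420 over the 16, and the factors were compared with it. CEBPA and PPARG varied with ADIPOQ, with slopes of 0.56 ± 0.06 (SE, adjusted p = 0.00014) and 0.43 ± 0.06 (adjusted p = 0.00195) in log2 units per log2 unit, in a limma fit that holds the 4 group means. Here 2 of the 9 factors were called, beside 1.99% of the 12068 genes tested (1.76% with a positive and 0.224% with a negative slope). The slopes of the other factors, from -0.10 for KLF5 to 0.20 for ZNF423, did not pass, and that of STAT5A was 0.09 ± 0.05 (adjusted p = 0.415). With library weights STAT5A was called (0.17, adjusted p = 0.00585), in a fit that called 933 genes in place of 240. CEBPA and PPARG were called in all 16 fits that leave out a library. They were called without the libraries with a steep span slope, at 0.49 and 0.34. CEBPB was called as well, at 0.34 in place of 0.16, without FCD replicate 4, and also without both FCD replicate 4 and MCD replicate 3, the libraries farthest from the median of ADIPOQ. In such cultures a smaller share of adipocytes and less RNA of these genes per adipocyte cannot be told apart.

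**Figure D5:**
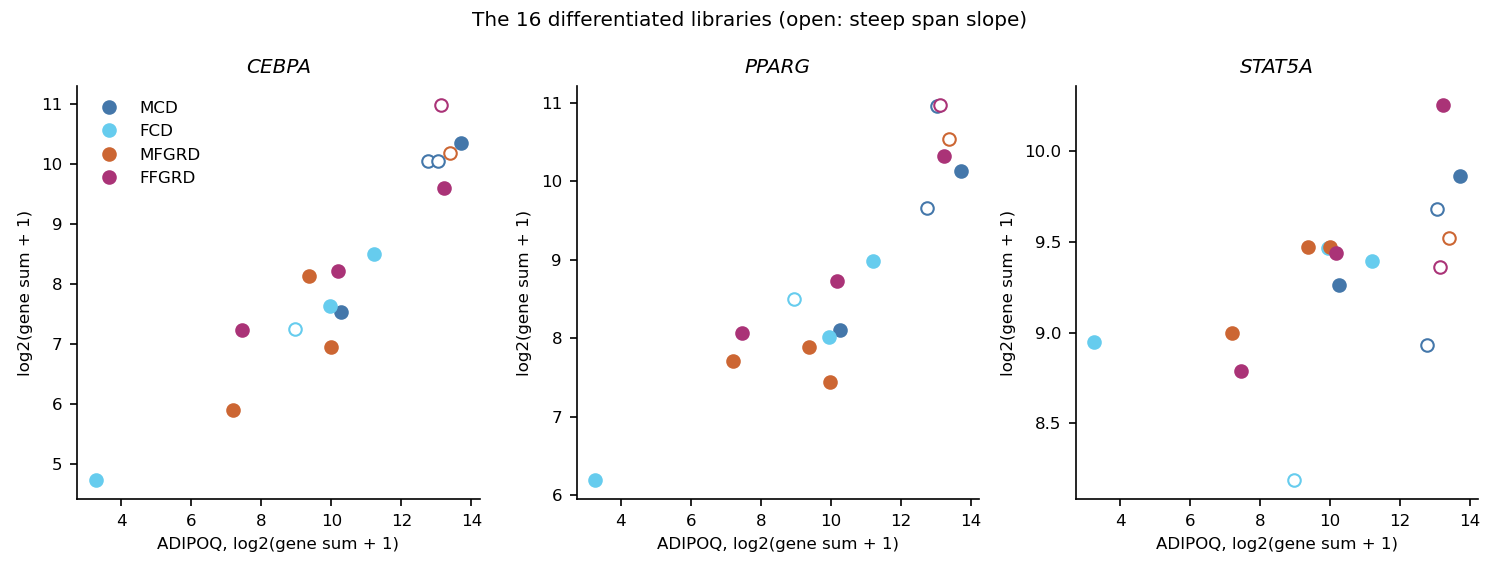
CEBPA, PPARG and STAT5A against ADIPOQ in the 16 differentiated libraries, each as log2(gene sum + 1), colored by group, with open symbols for the libraries with a steep span slope. CEBPA rose from 25.57 normalized reads in FCD replicate 4, the library lowest in ADIPOQ (8.585), to 1300 in MCD replicate 3, the highest in ADIPOQ (13420), while STAT5A was already at 492.9 in the former.

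The genes on which these factors act, and those that act with them, were counted over all groups, beside the 27.2% of all genes called. Of 23 listed adipocyte targets of PPARG and CEBPA, 18 were tested. Among these 17 were higher and 0 lower, with a median log2 difference of 3.46. They included FABP4, the fatty acid carrier (9.55 ± 0.69, SE), CD36, a fatty acid transporter (6.72 ± 0.61), and DGAT2, the last enzyme of triglyceride synthesis (7.15 ± 0.67). DGAT2 was at most 7.53 in preadipocytes, so it passed the filter only through differentiated libraries, which favours a call as higher. PCK1 and SLC2A4, named after their values were seen, had a median of 0 in preadipocytes. The target not called, named after its value was seen, was CIDEA, a lipid droplet protein of brown fat (0.07). Among the partners and coregulators of PPARG 2 of 15 were called: RXRA, its DNA-binding partner, at 1.09 ± 0.20 and the coactivator PPARGC1A at 1.46 ± 0.45. RXRB, a related partner, had -0.20 ± 0.11 (adjusted p = 0.183), and the median of the list was 0.12.

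Inhibitors of adipogenesis were called in both directions, 2 higher and 4 lower of 15. KLF2, a repressor of the PPARG gene, fell by 2.78 and DDIT3, which forms inactive dimers with CEBP proteins, fell by 1.61 on the log2 scale, whereas FOXO1, a repressor of PPARG activity, rose by 2.25. The other calls, named here after their values were seen, were ZNF521 (-1.67), which binds and restrains EBF1, RUNX1T1 (-1.05) and HES1 (1.17). Of the other factors of the cascade 7 of 19 were higher and 2 lower. KLF9 (2.48 ± 0.38, SE) and the glucose-responsive factor MLXIPL (3.01 ± 0.49) were among the higher, and PPARD had 0.56 ± 0.10, below the fold limit. MLXIPL was at most 6.51 in preadipocytes, so it passed the filter only through differentiated libraries. The 2 lower, named after their values were seen, were the stress factors ATF4 (-0.86) and XBP1 (-0.66).

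Upstream inputs and STAT5 feedback genes gave 6 of 11 higher and 1 lower, with a median of 0.79. The growth hormone receptor gene GHR had 2.36 ± 0.24 (SE), the STAT5 target CISH 2.43 ± 0.33 and the receptor gene LIFR 2.74 ± 0.51. The 1 lower, named after its value was seen, was the cytokine feedback gene SOCS3 (-0.93). All 6 tested genes that glucocorticoids induce were higher, with ZBTB16 at 8.93 ± 0.41, FKBP5 at 5.29 ± 0.31 and PER1 at 2.81 ± 0.29, and a median of 2.64. ZBTB16 was at most 8.19 in preadipocytes, so it passed the filter only through differentiated libraries.

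Markers of the cells that such cultures may hold were counted in the same fit, and the markers given with a value are those called, named after their values were seen. All 5 adipocyte markers tested were higher, and their summed values ran from 31 to 724 in preadipocytes and from 252 to 181802 after differentiation. These 5 are also among the adipocyte targets counted above, so this is not a separate result. Of the fibroblast markers 1 of 6 was higher (THY1, 1.65) and 2 lower (DCN, -1.28, and PDGFRB, -0.82), with sums of 102650 to 557555 and 28922 to 598999, so these markers were abundant at both stages. Smooth muscle markers gave 0 higher and 2 lower of 4 (DES, -3.43, and ACTA2, -1.81), with sums of 4835 to 50536 and 626 to 14084. Endothelial markers gave 1 lower of 4 (KDR, -1.43), with sums of 10 to 93 and 6 to 286 and CDH5 at a median of 0. Macrophage markers gave 1 higher (CD14, 1.86) and 1 lower (CD68, -0.81) of 2, with sums of 88 to 552 and 114 to 904 and the leukocyte marker PTPRC at a median of 0. Mesothelial markers gave 0 calls of 2, with sums of 3 to 392 and 1 to 127. Adrenal and kidney markers gave 3 higher (CYP11A1, 4.23, CYP17A1, 2.97, and STAR, 1.73) and 1 lower (PAX8, -3.01) of 5, with sums of 17 to 263 and 18 to 1360. CYP17A1 was listed at 0 in all preadipocyte libraries and CYP11A1 was at most 0.851 there. Both thus passed the filter only through differentiated libraries, which favours a call as higher. The part of these markers in the results for the factors was not tested.

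Correlations are given as a description over the 32 libraries, which share stage and span slope, and only among tested genes with a name. The genes whose log2 values followed CEBPA most closely were DGAT2 (Pearson's r = 0.96), HACD2 (0.94) and PLIN1 (0.94). Those nearest PPARG were EPHX2 (0.92), MGST1 (0.89) and SLC48A1 (0.88). CEBPA and PPARG had r = 0.84 with each other. CEBPD was nearest OAZ1 (0.92), SNAP29 (0.91) and MRPL28 (0.91), and its r with CEBPB was 0.64 and with KLF5 -0.44.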

How the data were processed

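RNA from 32 libraries of fetal sheep perirenal preadipocytes and differentiated adipocytes was sequenced. The authors removed reads whose mean Phred score was under 34, estimated transcript abundance with Salmon (Oar_rambouillet_v1.0, Ensembl transcripts) and scaled the libraries by DESeq2's median ratio method. The signal deposited by the authors for each transcript and library is in normalized reads and is not whole, so no count test was run. Reads shared by overlapping transcripts or paralogs are divided by estimation, which bears on PPARG transcripts and on STAT5A and STAT5B. FastQC 0.11.9 is given in the submitters' processing notes. The deposited columns of group means, fold changes and p-values hold the authors' comparisons and were not used.

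Transcripts were summed per gene. Genes with at least 10 normalized reads in at least 4 libraries of a fit were tested with limma 3.58.1 (trend) in R 4.3.3 on log2(gene sum + 1), with Benjamini-Hochberg adjustment over all genes tested. Calls needed an adjusted p below 0.05 and, except for the slope on ADIPOQ, a fold above 1.5. All adjusted p-values come from limma. Groups came from the labels. The procedure was also run on simulated data with planted differences and independent noise. These held no steep span slope and no shift shared by the genes of a library, so the run does not bear on such features.

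The members, the gene lists and the tests were chosen with earlier results of these data known. Named are all members and the 3 genes of each pathway list with the smallest adjusted p. Also named are the 3 genes most correlated with PPARG, CEBPA and CEBPD, among genes with a name. Transcripts are named that hold most of a gene sum or are called. Others are said to be named after their values were seen.

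Replicate numbers are shared between stages. Between libraries of the same number, the correlation of deviations from the group means was 0.16 to 0.61 in MC and 0.30 to 0.51 in FC. It was 0.39 to 0.67 in MFGR. In FFGR it was 0.33, -0.40, 0.56 and 0.53, in order of replicate number. Libraries of different numbers were not compared, so whether the numbers pair libraries was not tested. The main fits take no account of the numbers, and the replicate block does.

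No 2 libraries shared identical values. A value of 10 stands for 5.6 to 14.4 reads. Alternatives were quantile normalization, a pseudocount of 0.1, no filter, a filter of 20 CPM in 3 libraries, the span slope as a covariate, library weights, 1 fit of all 8 groups, the replicate block, leaving out each library and, chosen after seeing the data, leaving out the 9 libraries that stand apart.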

Additional observations from a re-analysis of the deposited data

Results flagged for a closer look

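In each group of 4 libraries the gap of the highest or lowest library to its neighbour was compared with the range of the group, on log2(gene sum + 1). The gap exceeded the 95% limit of Dixon's test in 7 of 72 groups of values (9 factors in 8 groups), where chance gives about 1 in 20. All 7 lay in differentiated groups.

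In MCD replicate 1, CEBPA was at 183.7 beside 1062, 1300 and 1063, and CEBPB was at 1200 beside 2418, 2469 and 2272. This library also had the lowest ADIPOQ of its group, at 1233. In MFGRD replicate 1, PPARG was at 1490 beside 235.5, 173.6 and 207.7, and its ADIPOQ was the highest of its group, at 10710. The library is also one of the 9 with a steep span slope. STAT5A was low, at 511, in MFGRD replicate 4, beside 734.5, 710.3 and 709.4, and this library had the lowest ADIPOQ of the group, at 146.1.

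The female control group held the other 3. In FCD replicate 2, which has a steep span slope, STAT5B was at 292.1 beside 776.1, 770.7 and 843.7, and ZNF423 was at 14.56 beside 45.35, 42.07 and 43.58. In FCD replicate 1, CEBPD was at 2225 beside 3638, 3586 and 3746. ADIPOQ was at 496.7 in FCD replicate 2 and 990.9 in FCD replicate 1, neither the lowest nor the highest of the group (8.585 to 2356). FCD replicate 4, the lowest of the group in ADIPOQ, was not flagged for any factor. The part of ADIPOQ and of the span slope in these values was not tested.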

How the results depend on the processing

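Over all groups CEBPA, PPARG, EBF1 and STAT5A were called under every alternative run, and no alternative called a factor for growth restriction, sex or a difference in response. Of 1287 alternative values of 50 named results, 1163 kept their direction and side of the threshold, 51 lost and 30 gained a call, and 43 changed sign, 30 of these on leaving out 1 library. Calls within single fetal groups rest on 4 against 4 libraries and shifted often, and a sum near 10 normalized reads rests on few reads. The causes of these shifts were not tested.

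The counts of the factors are given first, and then the counts of all genes called in the same fits. In MC the 3 calls became 5 with library weights, 5 with the replicate number as a block and 4 with the span slope as a covariate. They became 2 to 5 on leaving out a library and 2 without the 9 libraries. In FC the 0 calls became 2 with library weights. In MFGR the 2 calls became 4 with the block, 0 to 1 on leaving out a library, and 1 with quantile normalization, with no filter, with 20 CPM in 3 libraries and without the 9 libraries that stand apart. In FFGR the 1 call became 4 with the span slope as a covariate, 4 with library weights and 3 with all 8 groups in 1 fit. It became 0 with a pseudocount of 0.1, with 20 CPM in 3 libraries, with the block and without the 9 libraries, and 0 to 1 on leaving out a library. The block moved no other call. Over all genes the counts of calls were 874 in MC (1854 with the block, 311 to 1746 on leaving out a library), 50 in FC (197, and 0 to 95), 393 in MFGR (2081, and 77 to 317) and 310 in FFGR (182, and 26 to 259). With library weights they were 2052, 1504, 1344 and 4138 in these 4 groups, with the span covariate 703, 363, 1610 and 1952, with all 8 groups in 1 fit 1063, 321, 654 and 1315, with 20 CPM in 3 libraries 427, 11, 127 and 31, and without the 9 libraries 195, 209, 438 and 2. With no filter FC had 27. The slope on ADIPOQ called 240 genes (933 with weights, 108 to 301 on leaving out a library, 106 with 20 CPM in 3 libraries and 136 without the 9 libraries).

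Values that changed sign were all uncalled before. Over all groups CEBPB was -0.17 with library weights and -0.19 without the 9 libraries (-0.13 to 0.12 on leaving out a library), and KLF5 was -0.48 and -0.81 (-0.15 to 0.25). ZNF423 was 0.12 with library weights in MFGR (-0.68 to 0.43 on leaving out a library), and -0.09 to 0.45 in FC. The slope of EBF1 on ADIPOQ was 0.09 with the span covariate, 0.10 with weights and 0.09 without the 9 libraries (-0.10 to 0.02 on leaving out a library). That of STAT5B was 0.02, 0.04 and 0.03 under the same alternatives, and that of KLF5 0.01 with weights. The sex difference of KLF5 in preadipocytes was -0.14 without the 9 libraries.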
